A study of Mus musculus with 8 samples.

Results

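Heat shock proteins and chaperonins were described in the mouse basal cell carcinoma line ASZ001 as all genes of the deposited count table whose symbols belong to the Hspa, Hspb, Hspd, Hspe and Hsph series, to Hsp90, to the Dnaja, Dnajb and Dnajc series or to Cct2 to Cct8 with their variants. This rule, which uses names and no measured value, took 81 of 24907 symbols, and 69 of the 81 had enough counts to be among the 12538 genes tested. They comprised 53 cytosolic or nuclear members (42 tested), 13 of the endoplasmic reticulum (all tested), 8 mitochondrial members (all tested) and 7 without an assigned place (6 tested). The 12 members left untested were Cct6b, Cct8l1, Dnajb3, Dnajb7, Dnajb8, Dnajb13, Dnajc5g, Dnajc6, Dnajc22, Hspb3, Hspb7 and Hspb9, each at or under 0.938 CPM (counts per megacount of the TMM-scaled library size) in every library.

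The cells carried an shRNA to Tgfbr1, which encodes a TGF-beta receptor kinase (knockdown cells, labelled TGFbR1kd), or a non-silencing shRNA (NS cells), and received Dox and 4OHT or DMSO. The 4 groups were knockdown Dox-4OHT, NS Dox-4OHT, knockdown DMSO and NS DMSO, with 2 libraries each. Dox-4OHT libraries are the ones labelled RasV12, an activated Ras; since no library had Dox and 4OHT without that label, drugs and Ras cannot be told apart, and "Ras response" means Dox-4OHT against DMSO. Loss of Tgfbr1 likewise cannot be told apart from other effects of its shRNA or from differences between the lines. The term "knockdown effect" means knockdown against NS cells under the same treatment. The sources used here do not give doses, times, the construct that carries RasV12, whether DMSO cells carry it, whether the lines are clones or pools, or how many cultures the 2 libraries of each group represent. The p-values therefore measure only the spread between these libraries, which may be technical.

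Chaperones bind unfolded or partly folded proteins and help them reach or regain their shape. Hsp70 proteins cycle on and off such chains with the help of J proteins (the Dnaj genes), which bring clients and speed ATP use, and of Hsp110 proteins, which exchange the nucleotide. Hsp90 acts later on kinases and receptors, small heat shock proteins hold unfolded chains in the cytosol, and the CCT ring folds actin and tubulin. The endoplasmic reticulum and the mitochondrion have their own sets. In the heat shock response the factor Hsf1 raises many cytosolic chaperones, and in the unfolded protein response the reticulum's sensors raise those of the reticulum. In keratinocytes Hspb1 is known as an abundant small heat shock protein that rises with differentiation.

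Library totals ran from 12724604.5 to 16233379 counts, and correlations between the libraries of a group were 0.995 to 0.996 across genes, which are not independent replicates. Tgfbr1 was at 8.86 and 9.38 CPM in knockdown Dox-4OHT libraries, 104 and 91.6 CPM in NS Dox-4OHT libraries, 10.2 and 8.08 CPM in knockdown DMSO libraries and 77.1 and 80.4 CPM in NS DMSO libraries, so 8 of 8 libraries showed the shRNA of their label. Basal keratinocyte genes were high in every library, with Krt5 at 5520 to 13279 CPM, Krt14 at 2963 to 8662 CPM and Trp63 at 369 to 462 CPM. Krt5 and Krt14 changed with Ras by -1.18 and -1.23 (log2) in NS cells and by -0.54 and -0.63 in knockdown cells. With the knockdown under DMSO they changed by -0.66 and -0.87. Trp63 was instead higher with Ras in NS cells (0.23) and with the knockdown under DMSO (0.26). Of the markers of other cells, Col3a1, Lum, Cd3e, Dct and Tyr had no count in any library, Mlana had 0.5 of a count in 1 library, and Ptprc, the marker of all leukocytes, was at 0 except for 0.124 and 0.213 CPM in NS DMSO libraries. The 4 immune markers, of which Cd68 and Cd14 were detected in every library, summed to 21.1 and 20.5 CPM in knockdown Dox-4OHT libraries, 13.5 and 11.7 CPM in NS Dox-4OHT libraries, 8.63 and 9.98 CPM in knockdown DMSO libraries and 13.4 and 14.9 CPM in NS DMSO libraries. Cd68 rose with Ras in knockdown cells by 1.69 ± 0.14 (adjusted p = 1.48e-10 by edgeR), and its responses differed by 1.79 ± 0.20 (adjusted p = 5.28e-08). The endothelial marker Pecam1 was at 31.4 and 32.7 CPM in knockdown Dox-4OHT libraries, 23.8 and 22.4 CPM in NS Dox-4OHT libraries, 26 and 27.8 CPM in knockdown DMSO libraries and 36.4 and 37 CPM in NS DMSO libraries. The other endothelial markers were nearly absent, with Cdh5 at or under 0.0782 CPM and Kdr at or under 0.0732 CPM in every library. The 6 fibroblast markers summed to 1.11 to 4.39 CPM, lowest in the knockdown Dox-4OHT libraries, and the 4 pigment cell markers to 3.37 to 6.25 CPM. Esr1, the estrogen receptor, which binds 4OHT, was at 3451 to 3987 CPM in Dox-4OHT libraries and 14.1 to 22.8 CPM in DMSO libraries. Of the Hedgehog genes, Gli1 was at 0.521 to 3.23 CPM, Gli2 at 10.4 to 15.9 CPM and Ptch1 at 11.2 to 21.1 CPM. With the knockdown under DMSO, Gli1 was lower (log2 change -0.78), and Gli2 (0.37) and Ptch1 (0.47) were higher. The ribosomal RNA gene Rn45s took 0.388% to 2.76% of the counts, and leaving it out moved no count of called members by more than 1.5 times. In bulk RNA, fewer cells of a kind and less RNA per cell cannot be told apart.

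All members together took 1.41% and 1.39% of the counts in knockdown Dox-4OHT libraries, 1.40% and 1.40% in NS Dox-4OHT libraries, 1.51% and 1.49% in knockdown DMSO libraries and 1.35% and 1.36% in NS DMSO libraries. By level per kilobase of transcript, averaged over the groups, Hsp90ab1 led at 1301 CPM per kilobase, ahead of Hspb1 at 520, Cct5 at 298, Cct6a at 282, Cct2 at 254, Hsp90b1 at 238, Hspa5 at 235 and Hspa9 at 228. The abundant members thus came from every compartment. Hspa8, the constitutive cytosolic Hsp70, had 48.5 to 57.2 CPM per kilobase by group. It ranked 26 of the 69 tested members, with a mean of 51.8 against 63.2 for the inducible Hspa1b. How reads that match several genes were treated is not stated, so these levels are only as counted.

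Changes below are log2 changes ± SE from edgeR's quasi-likelihood test on all 8 libraries, and a gene rose, fell or was called higher or lower where its Benjamini-Hochberg adjusted p over all 12538 genes was under 0.05. In knockdown cells 12 of the 69 tested members rose and 15 fell with Ras, which is 39.1% of them against 36.1% of all genes. In NS cells 13 rose and 11 fell with Ras, or 34.8% against 42.1% of all genes. The knockdown went with 22 members higher and 24 lower under Dox-4OHT (66.7% against 60.2% of all genes) and with 23 higher and 17 lower under DMSO (58% against 61.9%). The difference between the Ras responses of knockdown and NS cells passed the test in 36 members, 16 above 0 and 20 below, or 52.2% against 38.2% of all genes. The shares of members called thus lay near those of all genes in the first 4 comparisons. Calls with a change of at least 1.5-fold were uncommon, with 3, 1, 10, 6 and 3 of the 69 tested members in these comparisons in the order given, against 6.5%, 9.37%, 20.8%, 21% and 11% of all genes. Changes of that size that did not pass the test are left out of these counts.

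The NS response was the comparison most dependent on single libraries. Its 13 and 11 became 7 higher without NS DMSO replicate 2, and 6 lower without NS DMSO replicate 1 or 7 lower without NS Dox-4OHT replicate 1 or replicate 2. DESeq2 called 7 higher and 9 lower with Ras in knockdown cells, 7 higher and 4 lower in NS cells, and 10 above and 12 below 0 in the difference between responses. In the fits that each left out 1 of the 8 libraries, 6 of the 13 and 3 of the 11 passed every time. For the knockdown response these counts were 9 of 12 and 9 of 15, for the knockdown effect 17 of 23 and 14 of 17 under DMSO and 19 of 22 and 15 of 24 under Dox-4OHT, and for the difference between responses 10 of 16 and 13 of 20. Each call described below as not passing without some library was also missed by DESeq2, at adjusted p of 0.0533 to 0.291, except those of Hspa5 with Ras and of Dnaja1. The 2 knockdown comparisons do not share libraries, whereas each shares libraries with the Ras responses.

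**Figure D1:**
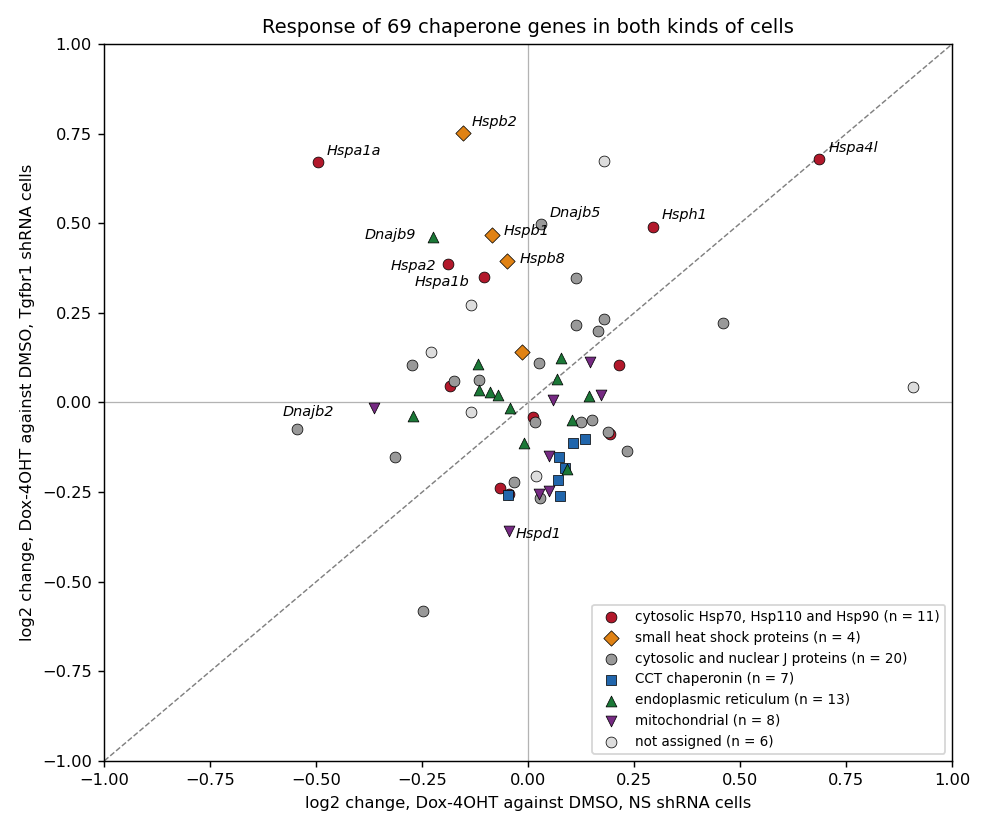
Ras response of the 69 tested members as log2 change in NS cells (horizontal axis) and in Tgfbr1 knockdown cells (vertical axis), each point a gene, with colour and shape for the compartment and a dashed line where the responses are equal. The CCT genes lie below the line at knockdown responses of -0.10 to -0.26, the small heat shock proteins lie above it, and Hspa4l lies close to it at 0.68 in knockdown cells and 0.69 in NS cells.

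The inducible cytosolic Hsp70 genes Hspa1a and Hspa1b, which sit side by side on chromosome 17, differed between the shRNAs in opposite directions under Dox-4OHT; under DMSO the difference passed the test for Hspa1b only. Hspa1b was at 139 and 128 CPM in knockdown Dox-4OHT libraries, 233 and 221 CPM in NS Dox-4OHT libraries, 108 and 102 CPM in knockdown DMSO libraries and 247 and 241 CPM in NS DMSO libraries. Every knockdown library was below every NS library. Its log2 change with the knockdown was -1.22 ± 0.05 under DMSO (adjusted p = 1.81e-18 by edgeR) and -0.76 ± 0.04 under Dox-4OHT (adjusted p = 3.96e-14). Within knockdown cells it rose with Ras by 0.35 ± 0.05 (adjusted p = 1.38e-06). The difference between the Ras responses was 0.46 ± 0.06 (adjusted p = 2.16e-06). Among NS libraries the Ras response of Hspa1b was -0.11 ± 0.04 (adjusted p = 0.0452), which did not pass without NS DMSO replicate 1 (-0.09, adjusted p = 0.24), NS DMSO replicate 2 (-0.12, adjusted p = 0.0815) or NS replicate 2 under Dox-4OHT (-0.07, adjusted p = 0.305).

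Hspa1a was much lower, at 7.82 and 8.67 CPM in knockdown Dox-4OHT libraries, 3.47 and 3.52 CPM in NS Dox-4OHT libraries, 5.27 and 5.06 CPM in knockdown DMSO libraries and 5.47 and 4.33 CPM in NS DMSO libraries. The knockdown Dox-4OHT libraries were the highest and the NS Dox-4OHT libraries the lowest, and the DMSO groups overlapped. With the knockdown it was higher under Dox-4OHT by 1.23 ± 0.17 (adjusted p = 7.35e-07) and not under DMSO, at 0.06 ± 0.17 (adjusted p = 0.763). With Ras it rose in knockdown cells by 0.67 ± 0.16 (adjusted p = 0.00141, and 0.0625 by DESeq2). In NS cells its change of -0.50 ± 0.19 (adjusted p = 0.0371) did not pass without NS DMSO replicate 1 (-0.31, adjusted p = 0.358), NS Dox-4OHT replicate 1 (-0.48, adjusted p = 0.119) or NS replicate 2 under Dox-4OHT (-0.51, adjusted p = 0.114). The difference between responses was 1.17 ± 0.25 (adjusted p = 0.000458).

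The pair is nearly identical, so how the counting divided their reads bears on these values, and the sources used here do not say how reads that match several genes were treated. In RefSeq's promoter table (GRCm38.p6) their promoters had 247 of 250 bases in common, or 98.8%, and the longest open reading frames of their transcripts had 1918 bases in common (99.58%). The farthest 60 bases before each start, in which 2 of the 3 differing promoter bases lie (capitals), are shown to let the likeness be seen, for Hspa1a at chr17:34972347-34972406 and for Hspa1b at chr17:34959429-34959488, both on the minus strand.
Hspa1a: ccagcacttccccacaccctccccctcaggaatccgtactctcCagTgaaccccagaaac
Hspa1b: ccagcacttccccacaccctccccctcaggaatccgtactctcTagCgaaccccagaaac
With the counts of the pair summed, the knockdown effect was -1.17 ± 0.04 under DMSO and -0.70 ± 0.04 under Dox-4OHT, the Ras response 0.37 ± 0.05 in knockdown cells, and the difference between responses 0.48 ± 0.06, each past the test. These summed values follow Hspa1b, which holds nearly all the counts.

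Among the other cytosolic Hsp70 and Hsp110 genes, Hspa4l and Hsph1, both exchange factors, rose with Ras in both kinds of cells. Hspa4l, an Hsp110 family member, was at 452 and 469 CPM in knockdown Dox-4OHT libraries, 319 and 317 CPM in NS Dox-4OHT libraries, 296 and 279 CPM in knockdown DMSO libraries and 198 and 197 CPM in NS DMSO libraries. No groups overlapped. It rose with Ras by 0.68 ± 0.04 in knockdown cells (adjusted p = 2.28e-14) and by 0.69 ± 0.04 in NS cells (adjusted p = 1.48e-14), with a difference between responses of -0.01 ± 0.05 (adjusted p = 0.932). It was higher with the knockdown by 0.54 ± 0.04 under DMSO (adjusted p = 7.63e-13) and 0.53 ± 0.04 under Dox-4OHT (adjusted p = 4.84e-13).

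Hsph1, the Hsp110 best known for its rise on heat shock, was at 253 and 261 CPM in knockdown Dox-4OHT libraries, 197 and 194 CPM in NS Dox-4OHT libraries, 177 and 189 CPM in knockdown DMSO libraries and 159 and 161 CPM in NS DMSO libraries. It rose with Ras by 0.49 ± 0.04 in knockdown cells (adjusted p = 1.11e-10) and by 0.29 ± 0.04 in NS cells (adjusted p = 1.05e-06). The difference of 0.20 ± 0.06 (adjusted p = 0.00644) did not pass without knockdown DMSO replicate 1 (0.14, adjusted p = 0.07) or by DESeq2 (adjusted p = 0.0533). Hspa4, the most abundant Hsp110, stayed within 730 to 785 CPM in all 8 libraries. With the knockdown under Dox-4OHT edgeR called Hspa4 lower, which DESeq2 did not (-0.08, adjusted p = 0.0846).

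Hspa8 was at 101 and 102 CPM in knockdown Dox-4OHT libraries, 99 and 108 CPM in NS Dox-4OHT libraries, 114 and 126 CPM in knockdown DMSO libraries and 106 and 111 CPM in NS DMSO libraries. It fell with Ras in knockdown cells by 0.24 on the log2 scale (SE 0.05, adjusted p = 0.000526), against -0.07 ± 0.05 in NS cells (adjusted p = 0.313). The responses differed by -0.17 ± 0.07 (adjusted p = 0.0617), which passed at -0.25 (adjusted p = 0.0109) once knockdown DMSO replicate 1 was left out, and at -0.24 (adjusted p = 0.0157) once NS Dox-4OHT replicate 1 was. Under DMSO edgeR called Hspa8 higher with the knockdown, which DESeq2 did not (0.15, adjusted p = 0.118). Reads of the small nucleolar RNA genes in its introns could be counted in it. Copies of Hspa8 under other names were not searched for. Hspa2, an Hsp70 best known from the testis, was low, at 20.1 and 19.1 CPM in knockdown Dox-4OHT libraries, 18.5 and 18.1 CPM in NS Dox-4OHT libraries, 14.8 and 15.2 CPM in knockdown DMSO libraries and 20.8 and 20.9 CPM in NS DMSO libraries. Its lowest group was knockdown DMSO. It was lower with the knockdown under DMSO at -0.48 ± 0.09 (adjusted p = 7.4e-05), and its Ras responses differed by 0.57 ± 0.13 (adjusted p = 0.000921).

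Both cytosolic Hsp90 genes were higher in knockdown than in NS cells under each treatment. Hsp90ab1, the constitutive gene, was at 3226 and 3191 CPM in knockdown Dox-4OHT libraries, 2876 and 2972 CPM in NS Dox-4OHT libraries, 3847 and 3812 CPM in knockdown DMSO libraries and 3011 and 3024 CPM in NS DMSO libraries. Knockdown DMSO libraries stood highest. The knockdown effect was 0.34 ± 0.03 under DMSO (adjusted p = 2.56e-11) and 0.13 ± 0.03 under Dox-4OHT (adjusted p = 0.000154). It fell with Ras in knockdown cells (-0.26 ± 0.03, adjusted p = 3.31e-08), with an NS response of -0.05 ± 0.03 (adjusted p = 0.196) and a difference of -0.21 ± 0.04 (adjusted p = 0.000112).

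Hsp90aa1, the stress-inducible Hsp90 gene, was at 253 and 259 CPM in knockdown Dox-4OHT libraries, 219 and 217 CPM in NS Dox-4OHT libraries, 237 and 238 CPM in knockdown DMSO libraries and 193 and 183 CPM in NS DMSO libraries. With the knockdown it was higher by 0.34 ± 0.04 under DMSO (adjusted p = 1.28e-08) and 0.23 ± 0.04 under Dox-4OHT (adjusted p = 6.34e-06). With Ras it rose in NS cells by 0.21 ± 0.04 (adjusted p = 4.51e-05). In knockdown cells its change of 0.11 ± 0.04 (adjusted p = 0.0271) did not pass without any of the libraries compared, namely knockdown Dox-4OHT replicate 1 (0.12, adjusted p = 0.0528) or 2 (0.09, adjusted p = 0.166) and knockdown DMSO replicate 1 (0.09, adjusted p = 0.14) or 2 (0.11, adjusted p = 0.0894).

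The 4 tested small heat shock proteins were each higher in both knockdown Dox-4OHT libraries than in any other library. Of the 4 tested, 3 rose with Ras in knockdown cells (19.5% of all genes rose) and 0 passed in NS cells by edgeR or DESeq2, with 1 at an unadjusted p under 0.05. Without NS Dox-4OHT replicate 2, Hspb1 passed as lower in NS cells (-0.13, adjusted p = 0.0191). All 4 were higher in knockdown than in NS cells under Dox-4OHT, where 30.5% of all genes were. The median change of the list was 0.43 in knockdown cells and -0.07 in NS cells, against 0.00 in each for all genes. Cd68 too was highest in the knockdown Dox-4OHT libraries, at 15.5 and 14.8 CPM, against 7.80 and 7.32 CPM in NS Dox-4OHT libraries, 4.51 and 4.92 CPM in knockdown DMSO libraries and 7.53 and 8.74 CPM in NS DMSO libraries. Its part in the small heat shock protein values was not tested.

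Hspb1, the mouse counterpart of human HSP27, was at 640 and 623 CPM in knockdown Dox-4OHT libraries, 365 and 389 CPM in NS Dox-4OHT libraries, 471 and 443 CPM in knockdown DMSO libraries and 391 and 409 CPM in NS DMSO libraries. The knockdown Dox-4OHT libraries stood clear above all others. It rose with Ras in knockdown cells by 0.47 ± 0.04 (adjusted p = 2e-10), against -0.08 ± 0.04 in NS cells (adjusted p = 0.0754), and the responses differed by 0.55 ± 0.05 (adjusted p = 8.12e-09). Its knockdown effect was 0.74 ± 0.04 under Dox-4OHT (adjusted p = 4e-15) and 0.19 ± 0.04 under DMSO (adjusted p = 9.23e-05).

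Hspb8, a partner of the co-chaperone Bag3 in selective autophagy, was at 246 and 233 CPM in knockdown Dox-4OHT libraries, 207 and 221 CPM in NS Dox-4OHT libraries, 189 and 176 CPM in knockdown DMSO libraries and 223 and 220 CPM in NS DMSO libraries. Its knockdown effect had opposite signs, at 0.16 ± 0.04 under Dox-4OHT (adjusted p = 0.0014) and -0.28 ± 0.04 under DMSO (adjusted p = 2.12e-06), and the responses differed by 0.44 ± 0.06 (adjusted p = 1.17e-06). Hspb6 was at 10.1 to 14.4 CPM and was higher with the knockdown under Dox-4OHT (0.43 ± 0.11, adjusted p = 0.00181).

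Hspb2 was at 42.5 and 37.6 CPM in knockdown Dox-4OHT libraries, 17.6 and 20.5 CPM in NS Dox-4OHT libraries, 25.1 and 22.8 CPM in knockdown DMSO libraries and 22.4 and 20 CPM in NS DMSO libraries. Its knockdown effect under Dox-4OHT was 1.07 ± 0.09 (adjusted p = 8.04e-11), and the responses differed by 0.91 ± 0.13 (adjusted p = 4.49e-06). Hspb2 overlaps Cryab, the alpha-B crystallin gene of the same protein family, in RefSeq's gene spans. Whether counting used strand is not stated, so reads in the overlap cannot be told apart here. Cryab, which the naming rule leaves out, was at 170 and 157 CPM in knockdown Dox-4OHT libraries, 99.4 and 103 CPM in NS Dox-4OHT libraries, 125 and 127 CPM in knockdown DMSO libraries and 167 and 168 CPM in NS DMSO libraries. It rose with Ras in knockdown cells by 0.38 ± 0.04 (adjusted p = 1.07e-07) and fell in NS cells (-0.73 ± 0.04, adjusted p = 2.29e-13), a difference of 1.11 ± 0.06 (adjusted p = 1.93e-13).

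**Figure D2:**
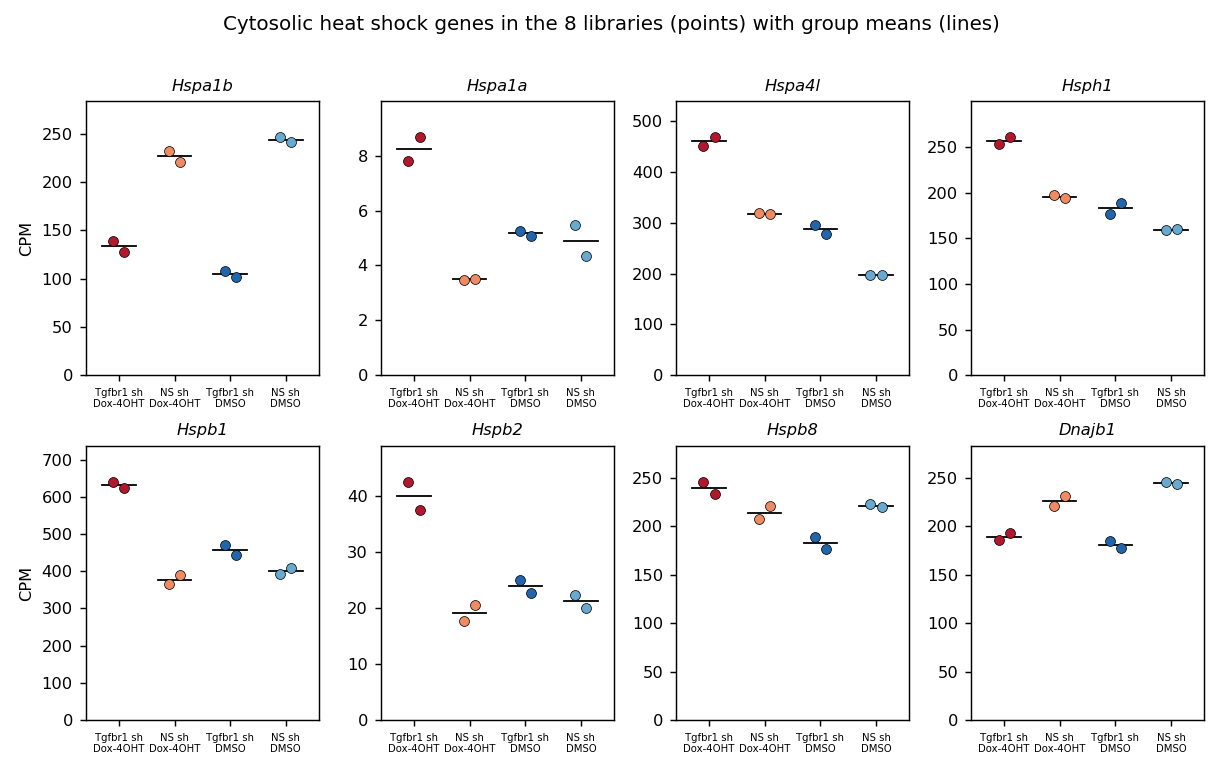
CPM of 8 cytosolic heat shock genes in each library (points) with the group mean (line), groups from left to right being Tgfbr1 shRNA with Dox-4OHT, NS shRNA with Dox-4OHT, Tgfbr1 shRNA with DMSO and NS shRNA with DMSO, each panel with its own axis from 0. Hspb1 and Hspb2 stand highest in the knockdown Dox-4OHT libraries, at 640 and 623 CPM and at 42.5 and 37.6 CPM, and Hspa1b stands highest in the NS libraries of both treatments.

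Of the 20 tested cytosolic and nuclear J proteins, 3 were higher and 7 lower with the knockdown under DMSO, and 3 were higher and 9 lower under Dox-4OHT. These were 50% and 60% of the list, near the 61.9% and 60.2% of all genes called. With Ras 1 was higher and 2 lower in knockdown cells, or 15% against 36.1% of all genes, and 3 were higher and 5 lower in NS cells, or 40% against 42.1%. Dnajb1, the heat-inducible partner of cytosolic Hsp70, was at 186 and 193 CPM in knockdown Dox-4OHT libraries, 221 and 231 CPM in NS Dox-4OHT libraries, 185 and 177 CPM in knockdown DMSO libraries and 246 and 244 CPM in NS DMSO libraries. Like Hspa1b, it was lower in every knockdown library, at -0.44 ± 0.04 under DMSO (adjusted p = 1.82e-10) and -0.26 ± 0.04 under Dox-4OHT (adjusted p = 2.34e-06). Its Ras response in knockdown cells was 0.06 ± 0.04 (adjusted p = 0.229).

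Dnajc5, the cysteine string protein of vesicle release, was at 214 and 208 CPM in knockdown Dox-4OHT libraries, 277 and 277 CPM in NS Dox-4OHT libraries, 202 and 203 CPM in knockdown DMSO libraries and 312 and 314 CPM in NS DMSO libraries. It was lower with the knockdown at -0.63 ± 0.04 under DMSO (adjusted p = 1.07e-14) and -0.39 ± 0.04 under Dox-4OHT (adjusted p = 2.12e-10). Dnajc2, the J protein of the ribosome-associated complex, was at 66.6 and 68.5 CPM in knockdown Dox-4OHT libraries, 111 and 109 CPM in NS Dox-4OHT libraries, 82.1 and 80.3 CPM in knockdown DMSO libraries and 106 and 110 CPM in NS DMSO libraries. Its knockdown effect was -0.70 ± 0.05 under Dox-4OHT (adjusted p = 9.09e-13) and -0.41 ± 0.05 under DMSO (adjusted p = 1.79e-08). It fell with Ras in knockdown cells by 0.27 on the log2 scale (SE 0.05, adjusted p = 0.000119), with 0.03 ± 0.04 in NS cells (adjusted p = 0.667).

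The largest J protein differences were in low genes. Dnajc24, which acts in the synthesis of diphthamide on elongation factor eEF2, was at 3.84 and 2.97 CPM in knockdown Dox-4OHT libraries, 8.49 and 6.88 CPM in NS Dox-4OHT libraries, 2.29 and 3.09 CPM in knockdown DMSO libraries and 6.97 and 7.25 CPM in NS DMSO libraries. Its knockdown effect was -1.15 ± 0.19 under Dox-4OHT (adjusted p = 5.36e-06) and -1.39 ± 0.20 under DMSO (adjusted p = 7.46e-07). Dnajc12 and Dnajc27, at most 5.57 and 8.35 CPM, were lower with the knockdown as well, at -1.31 and -1.36 under Dox-4OHT and -1.36 and -1.12 under DMSO. Dnajb5, at 12.8 and 12.1 CPM in knockdown Dox-4OHT libraries and 7.72 and 7.4 CPM in NS Dox-4OHT libraries, went the other way (0.73 ± 0.13, adjusted p = 1.67e-05). Dnajc13, an endosomal J protein, was higher with the knockdown by 0.51 ± 0.05 under Dox-4OHT (adjusted p = 1.87e-10) and 0.42 ± 0.04 under DMSO (adjusted p = 5.63e-09). Dnajc21, which acts in ribosome assembly, was at 55.1 to 56.1 CPM in knockdown DMSO libraries and 39.1 to 41.4 CPM in NS DMSO libraries (0.47 ± 0.06, adjusted p = 3.18e-07).

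Dnajb2, a J protein with ubiquitin-binding motifs, fell with Ras in NS cells. It was at 46.9 and 45.8 CPM in knockdown Dox-4OHT libraries, 44.5 and 44.2 CPM in NS Dox-4OHT libraries, 53 and 44.8 CPM in knockdown DMSO libraries and 64.6 and 64.8 CPM in NS DMSO libraries. The NS DMSO libraries stood above the rest. Its NS response was -0.54 ± 0.07 (adjusted p = 1.18e-07) and the difference between responses 0.47 ± 0.09 (adjusted p = 0.000243). In NS cells the further falls of Dnajb4 (-0.31, not past the test without NS DMSO replicate 1 at -0.22 and adjusted p = 0.117, or NS Dox-4OHT replicate 2 at -0.26 and adjusted p = 0.0644) and Dnaja4 (-0.27, not without NS Dox-4OHT replicate 2 at -0.21 and adjusted p = 0.115) rested on single libraries. Dnaja4 was higher with the knockdown under Dox-4OHT by 0.48 ± 0.08 (adjusted p = 1.5e-05).

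Dnaja1, a main partner of Hspa8, varied within groups, at 67.4 and 59.1 CPM in knockdown Dox-4OHT libraries, 69.4 and 55.4 CPM in NS Dox-4OHT libraries, 64.7 and 69.6 CPM in knockdown DMSO libraries and 56.3 and 52.9 CPM in NS DMSO libraries. Its change with the knockdown under DMSO was 0.30 ± 0.11 (adjusted p = 0.0421) and did not pass without any of the 4 libraries compared, with adjusted p of 0.0696 without knockdown DMSO replicate 1, 0.197 without replicate 2, 0.0847 without NS DMSO replicate 1 and 0.163 without replicate 2. Without NS Dox-4OHT replicate 2 its Ras response in NS cells passed (0.34, adjusted p = 0.00135), as did the difference between responses (-0.43, adjusted p = 0.00166). A named pseudogene, Dnaja1-ps, is a copy with which it could share reads.

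The CCT chaperonin is a ring of different subunits, of which the rule takes Cct2 to Cct8, and 7 were tested. All 7 fell with Ras in knockdown cells, by changes of -0.10 to -0.26, where 16.6% of all genes fell. In NS cells 3 of the 7 rose (20.8% of all genes rose). All 7 differences between responses were below 0 and passed the test, at -0.21 to -0.34, where 18% of all genes did so. The median difference was -0.23 for the 7 subunits and 0.02 for all genes. These are small changes, none of which reached 0.5 on the log2 scale.

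Summed over the list, the CCT genes were at 2966 and 2996 CPM in knockdown Dox-4OHT libraries, 3466 and 3501 CPM in NS Dox-4OHT libraries, 3384 and 3398 CPM in knockdown DMSO libraries and 3300 and 3312 CPM in NS DMSO libraries. The knockdown Dox-4OHT libraries were below all others. Cct6a had the largest difference between responses and was at 541 and 539 CPM in knockdown Dox-4OHT libraries, 629 and 645 CPM in NS Dox-4OHT libraries, 653 and 643 CPM in knockdown DMSO libraries and 602 and 606 CPM in NS DMSO libraries. It fell with Ras in knockdown cells (-0.26 ± 0.03, adjusted p = 1.55e-07), and the responses differed by -0.34 ± 0.04 (adjusted p = 7.41e-07). Cct3 had the smallest difference at -0.21 ± 0.05 (adjusted p = 0.000795).

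Between knockdown and NS cells the subunits were not alike. Under Dox-4OHT 6 of the 7 were lower with the knockdown (29.7% of all genes were), the exception being Cct8 at -0.07 ± 0.03 (adjusted p = 0.0579). Under DMSO 4 were higher (30.9% of all genes) and 1, Cct4, was lower (31% of all genes). Cct4 was at 325 and 324 CPM in knockdown Dox-4OHT libraries, 441 and 443 CPM in NS Dox-4OHT libraries, 344 and 353 CPM in knockdown DMSO libraries and 403 and 403 CPM in NS DMSO libraries, so that every knockdown library was below every NS library. Its knockdown effect was -0.45 ± 0.03 under Dox-4OHT (adjusted p = 4.27e-12) and -0.21 ± 0.03 under DMSO (adjusted p = 3.28e-06). Cct8 was at 440 and 446 CPM in knockdown DMSO libraries and 381 and 385 CPM in NS DMSO libraries, a knockdown effect of 0.21 ± 0.03 (adjusted p = 3.44e-06).

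Tcp1, the subunit CCT1 that the naming rule leaves out, was at 793 and 800 CPM in knockdown Dox-4OHT libraries, 808 and 802 CPM in NS Dox-4OHT libraries, 915 and 911 CPM in knockdown DMSO libraries and 745 and 759 CPM in NS DMSO libraries. Its Ras response was -0.20 ± 0.03 in knockdown cells (adjusted p = 5.68e-06), and the responses differed by -0.29 ± 0.04 (adjusted p = 2.47e-06). All 7 CCT differences passed in each fit that left out 1 library and by DESeq2. For the fall in knockdown cells, Cct4 (-0.10 ± 0.03, adjusted p = 0.0179) did not pass without knockdown Dox-4OHT replicate 1 (-0.10, adjusted p = 0.0979) or 2 (-0.10, adjusted p = 0.0943) or knockdown DMSO replicate 2 (-0.08, adjusted p = 0.145), and Cct7 did not pass without knockdown Dox-4OHT replicate 1 (-0.09, adjusted p = 0.109). Of the 3 rises in NS cells, Cct4 (0.13 ± 0.03, adjusted p = 0.00152) passed in every such fit, whereas Cct7 (0.11) did not without NS DMSO replicate 2 (0.10, adjusted p = 0.0697) and Cct2 (0.09) did not without 5 of the 8 libraries (adjusted p 0.0504 to 0.219, highest without NS Dox-4OHT replicate 1). In RefSeq's gene spans Cct6a, Cct7 and Cct8 overlap Psph, Pradc1 and Usp16, and the same holds for Hspa5 with Rabepk, Hspb6 with Lin37 and Dnajb4 with Fubp1, so reads in the overlaps cannot be told apart.

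**Figure D3:**
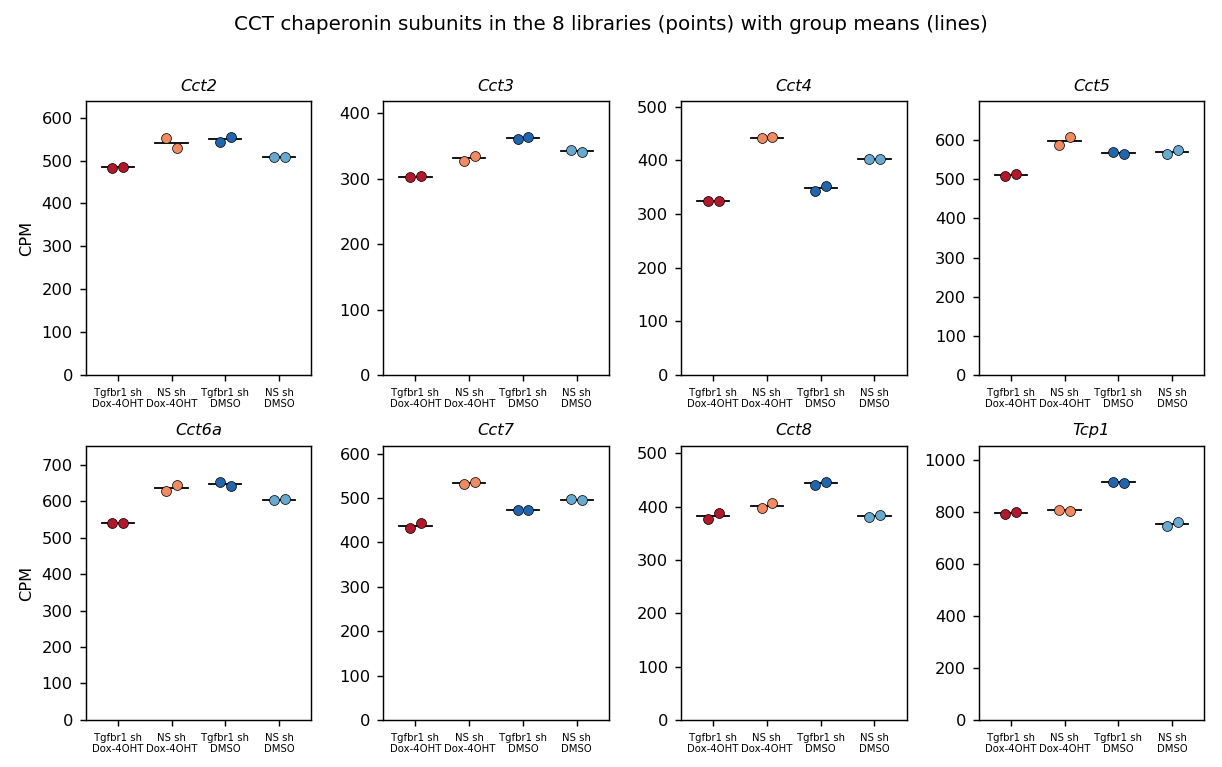
The 7 tested CCT subunits and Tcp1 in the 4 groups, with CPM of each library as points and group means as lines, groups in the order Tgfbr1 shRNA with Dox-4OHT, NS shRNA with Dox-4OHT, Tgfbr1 shRNA with DMSO and NS shRNA with DMSO. For Cct6a the knockdown Dox-4OHT libraries, at 541 and 539 CPM, are the lowest, and for Cct4 both knockdown groups lie below both NS groups.

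Of the 13 chaperones of the endoplasmic reticulum, 7 were higher and 3 lower with the knockdown under Dox-4OHT, and 5 were higher and 3 lower under DMSO. These were 76.9% and 61.5% of the list, against 60.2% and 61.9% of all genes. With Ras, 2 rose and 1 fell in knockdown cells (23.1%, against 36.1% of all genes) and 2 rose and 3 fell in NS cells (38.5%, against 42.1%). Hsp90b1 (Grp94, the Hsp90 of the reticulum) was at 763 and 768 CPM in knockdown Dox-4OHT libraries, 560 and 582 CPM in NS Dox-4OHT libraries, 766 and 748 CPM in knockdown DMSO libraries and 524 and 510 CPM in NS DMSO libraries. All knockdown libraries were above all NS libraries. The knockdown effect was 0.42 ± 0.03 under Dox-4OHT (adjusted p = 6.95e-12) and 0.55 ± 0.03 under DMSO (adjusted p = 2.66e-14), and in NS cells it rose with Ras by 0.14 ± 0.03 (adjusted p = 0.000655).

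Hspa5 (BiP), the Hsp70 of the reticulum and the usual gauge of its stress response, changed far less. It was at 637 and 642 CPM in knockdown Dox-4OHT libraries, 572 and 592 CPM in NS Dox-4OHT libraries, 593 and 595 CPM in knockdown DMSO libraries and 632 and 631 CPM in NS DMSO libraries. The knockdown effect under Dox-4OHT was 0.14 ± 0.03 (adjusted p = 0.00049), and the difference between responses 0.22 ± 0.04 (adjusted p = 0.000199). Its other changes were small, at 0.11 ± 0.03 with Ras in knockdown cells (adjusted p = 0.00859), -0.12 ± 0.03 with Ras in NS cells (adjusted p = 0.00321) and -0.09 ± 0.03 with the knockdown under DMSO (adjusted p = 0.0161). The change in knockdown cells did not pass without knockdown Dox-4OHT replicate 2 (0.10, adjusted p = 0.0694) or knockdown DMSO replicate 1 (0.09, adjusted p = 0.0666), and that in NS cells did not without NS Dox-4OHT replicate 1 (-0.09, adjusted p = 0.0613). The change under DMSO did not pass without any of the 4 libraries compared, with adjusted p of 0.124 and 0.07 without knockdown DMSO replicate 1 and 2 and 0.134 and 0.0986 without NS DMSO replicate 1 and 2.

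Promoters of members were searched for short sequences bound by stress response factors, on either strand, in the 250 bases before to 50 bases after the start, using RefSeq's table (GRCm38.p6), which held windows for 66 of the 81 members. The endoplasmic reticulum stress element, searched as CCAAT and CCACG with 9 bases of any kind between them, was found in 3 members, Hspa5, Hsp90b1 and Dnajc3, and in 0.119% of all 32851 promoter windows. The stretches with the element are shown so that the letters shared by the 3 genes can be set beside their values; capitals mark the fixed letters of the element, and in Hsp90b1, which holds it 2 times, the other match is on the other strand. They lie at chr2:34772013-34772055 (plus strand), chr10:86705521-86705668 (minus strand) and chr14:118937815-118937857 (plus strand).
Hspa5: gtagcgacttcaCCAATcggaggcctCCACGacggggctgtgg
Hsp90b1: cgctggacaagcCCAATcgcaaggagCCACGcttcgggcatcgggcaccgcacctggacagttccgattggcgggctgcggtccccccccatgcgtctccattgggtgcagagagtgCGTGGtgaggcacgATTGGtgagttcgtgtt
Dnajc3: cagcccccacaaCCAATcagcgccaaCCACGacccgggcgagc
The knockdown effects under Dox-4OHT beside them were 0.14 for Hspa5, 0.42 for Hsp90b1 and 0.23 for Dnajc3, and were not tested against each other. Under DMSO they differed in direction, with Hspa5 lower and Hsp90b1 and Dnajc3 higher. Those calls of Hspa5 and Dnajc3 under DMSO did not pass without some single libraries. A match is a description of letters, and nothing about binding was measured. The C/EBP-ATF response element TGATGNAA was found in Hspa14 among the members and in 3.97% of all windows.

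Among the J proteins of the reticulum, Dnajb9 (ERdj4), which helps to keep the sensor Ire1 inactive, was at 15.4 and 14.8 CPM in knockdown Dox-4OHT libraries, 10.7 and 10.5 CPM in NS Dox-4OHT libraries, 12.2 and 9.84 CPM in knockdown DMSO libraries and 12.2 and 12.5 CPM in NS DMSO libraries. It was higher with the knockdown under Dox-4OHT by 0.52 ± 0.12 (adjusted p = 0.000421), and the responses differed by 0.69 ± 0.17 (adjusted p = 0.00179). Its rise with Ras in knockdown cells (0.46 ± 0.12, adjusted p = 0.00244) did not pass without knockdown DMSO replicate 2 (0.31, adjusted p = 0.0938). Dnajb11 (ERdj3), a cofactor of BiP, was at 129 and 126 CPM in knockdown Dox-4OHT libraries, 107 and 111 CPM in NS Dox-4OHT libraries, 125 and 132 CPM in knockdown DMSO libraries and 112 and 113 CPM in NS DMSO libraries. It was higher with the knockdown under both treatments (0.22 ± 0.04, adjusted p = 8.65e-05 under Dox-4OHT and 0.20 ± 0.04, adjusted p = 0.000311 under DMSO).

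Dnajc3 (P58IPK), an inhibitor of the kinase Perk and a BiP cofactor, was at 86.5 and 83.3 CPM in knockdown Dox-4OHT libraries, 76.8 and 68.6 CPM in NS Dox-4OHT libraries, 83.6 and 83.9 CPM in knockdown DMSO libraries and 76.6 and 76 CPM in NS DMSO libraries. Its knockdown effect under Dox-4OHT was 0.23 ± 0.05 (adjusted p = 0.000734). Under DMSO it was 0.13 ± 0.05 (adjusted p = 0.0305) and did not pass without knockdown DMSO replicate 2 (0.14, adjusted p = 0.0868), NS DMSO replicate 1 (0.15, adjusted p = 0.0676) or NS DMSO replicate 2 (0.14, adjusted p = 0.0861). Dnajc16 had the largest knockdown effect of the list under Dox-4OHT, at 60.7 and 61 CPM in knockdown Dox-4OHT libraries, 42.2 and 39 CPM in NS Dox-4OHT libraries, 62.6 and 56.7 CPM in knockdown DMSO libraries and 42.7 and 43.9 CPM in NS DMSO libraries (0.58 ± 0.06, adjusted p = 1.05e-08). Dnajb14, a membrane J protein, was lower with the knockdown under DMSO (-0.46 ± 0.08, adjusted p = 2.01e-05), at 20.2 and 21.5 CPM in knockdown DMSO libraries and 29.4 and 28 CPM in NS DMSO libraries. In NS cells its change with Ras was -0.27 ± 0.08 (adjusted p = 0.0072), which did not pass without NS Dox-4OHT replicate 1 (-0.24, adjusted p = 0.0598) or NS DMSO replicate 1 (-0.23, adjusted p = 0.0899).

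Of the 8 mitochondrial chaperones, 4 were higher with the knockdown under DMSO, and 3 were higher and 1 lower under Dox-4OHT. These were 50% of the list under each treatment, against 61.9% of all genes under DMSO and 60.2% under Dox-4OHT. With Ras 3 fell in knockdown cells (37.5%, near the 36.1% of all genes called), and 1 rose and 1 fell in NS cells (25%, against 42.1%). The chaperonin Hspd1 (Hsp60) and its lid Hspe1 (Hsp10) fold proteins of the matrix. Hspd1 was at 302 and 295 CPM in knockdown Dox-4OHT libraries, 278 and 281 CPM in NS Dox-4OHT libraries, 376 and 389 CPM in knockdown DMSO libraries and 290 and 287 CPM in NS DMSO libraries. The knockdown DMSO libraries stood clear of the rest. It was higher with the knockdown under DMSO by 0.41 ± 0.03 (adjusted p = 5.86e-11), and it fell with Ras in knockdown cells (-0.36 ± 0.03, adjusted p = 3.03e-09), with -0.05 ± 0.03 in NS cells (adjusted p = 0.295) and a difference of -0.31 ± 0.05 (adjusted p = 1.04e-05). Its knockdown effect under Dox-4OHT, 0.09 ± 0.03 (adjusted p = 0.0222), did not pass without knockdown Dox-4OHT replicate 1 (0.08, adjusted p = 0.163) or NS replicate 1 under Dox-4OHT (0.09, adjusted p = 0.0855).

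Hspe1 was at 52.5 and 46.6 CPM in knockdown Dox-4OHT libraries, 56.7 and 58.2 CPM in NS Dox-4OHT libraries, 58.2 and 59.7 CPM in knockdown DMSO libraries and 55.4 and 55.8 CPM in NS DMSO libraries. Its Ras response was -0.25 ± 0.06 in knockdown cells (adjusted p = 0.00231) and 0.05 ± 0.06 in NS cells (adjusted p = 0.554), with a difference of -0.30 ± 0.09 (adjusted p = 0.00789), and its knockdown effect under Dox-4OHT was -0.21 ± 0.06 (adjusted p = 0.00506). The 3 calls rested on knockdown Dox-4OHT replicate 2, without which they were -0.17 (adjusted p = 0.08), -0.22 (adjusted p = 0.0703) and -0.13 (adjusted p = 0.129). RefSeq names 5 pseudogenes of Hspd1 and 6 of Hspe1, with which reads could be shared. The same holds for Hspa9, Cct3, Dnajb6 and Dnajc19, with 1 named pseudogene each.

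Hspd1 and Hspe1 lie head to head on chromosome 1 and share a promoter. The heat shock element, searched as GAA, TTC and GAA in this order with 2 bases of any kind after each of the first pair, was found in the windows of 4 members, Hspd1, Hspe1, Hsph1 and Dnajb6, and in 0.603% of all windows. The shared stretch, chr1:55088047-55088088, is shown once in each gene's direction (minus strand for Hspd1, plus strand for Hspe1) because the same letters stand beside knockdown effects under DMSO of 0.41 for Hspd1 and 0.09 for Hspe1, which were not tested against each other; 2 overlapping matches lie in it, and capitals mark their fixed letters.
Hspd1: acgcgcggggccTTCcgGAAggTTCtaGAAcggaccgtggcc
Hspe1: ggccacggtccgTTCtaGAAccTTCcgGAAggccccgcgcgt
Under Dox-4OHT Hspd1 was higher and Hspe1 lower with the knockdown, calls that did not pass without some single libraries. Among the heat-inducible members without the heat shock element in their windows were Hspa1b and Dnajb1, which says only that these letters were not in that stretch.

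Hspa9 (mortalin), the Hsp70 of the matrix, was at 729 and 712 CPM in knockdown Dox-4OHT libraries, 691 and 711 CPM in NS Dox-4OHT libraries, 704 and 716 CPM in knockdown DMSO libraries and 615 and 630 CPM in NS DMSO libraries. The NS DMSO libraries were the lowest. Its Ras response was 0.02 ± 0.03 in knockdown cells (adjusted p = 0.636), while it rose in NS cells by 0.17 ± 0.03 (adjusted p = 5.94e-05), and it was higher with the knockdown under DMSO by 0.19 ± 0.03 (adjusted p = 7.02e-06). The difference between responses, -0.15 ± 0.04 (adjusted p = 0.00798), did not pass without knockdown Dox-4OHT replicate 2 (-0.13, adjusted p = 0.0541). Dnaja3 (Tid1), the J protein that serves it, was at 72.4 to 83.1 CPM in the 8 libraries and passed in none of the 5 comparisons by edgeR, with adjusted p from 0.0731 to 0.933. Without NS Dox-4OHT replicate 1 its knockdown effect under Dox-4OHT was -0.17 (adjusted p = 0.0166). Dnajc30 fell with Ras in NS cells (-0.36 ± 0.09, adjusted p = 0.00122), at 20.8 and 18.6 CPM in NS Dox-4OHT libraries and 24.8 and 26 CPM in NS DMSO libraries. It overlaps Bud23.

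**Figure D4:**
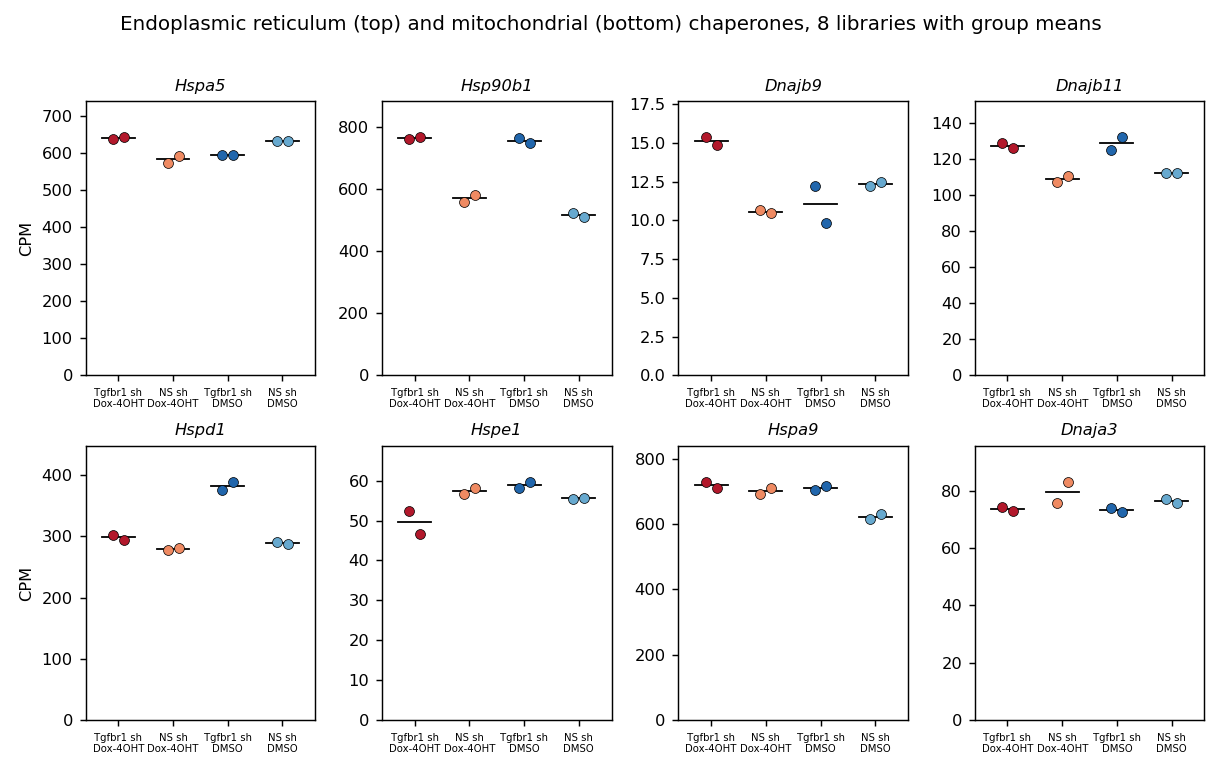
CPM of chaperones of the endoplasmic reticulum and the mitochondrion in each library (points) with group means (lines), groups in the order Tgfbr1 shRNA with Dox-4OHT, NS shRNA with Dox-4OHT, Tgfbr1 shRNA with DMSO and NS shRNA with DMSO. Hsp90b1 is higher in all knockdown libraries, at 748 to 768 CPM against 510 to 582 CPM in NS libraries, and Hspd1 is highest in the knockdown DMSO libraries at 376 and 389 CPM.

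Among the members without an assigned place, Dnajc25 was lower with the knockdown, at 18.4 and 17.7 CPM in knockdown Dox-4OHT libraries, 29 and 28.3 CPM in NS Dox-4OHT libraries, 19.1 and 22.4 CPM in knockdown DMSO libraries and 28.2 and 28.4 CPM in NS DMSO libraries. The knockdown effects were -0.67 ± 0.09 under Dox-4OHT (adjusted p = 2.83e-07) and -0.44 ± 0.09 under DMSO (adjusted p = 6.11e-05). Dnajc4 was at 10.8 and 12.2 CPM in knockdown DMSO libraries and 17 and 18.2 CPM in NS DMSO libraries (-0.60 ± 0.11, adjusted p = 2.35e-05). Over the whole set, 12 of the 69 tested members passed in no comparison, namely Dnaja3, Dnajb6, Dnajb12, Dnajc1, Dnajc5b, Dnajc8, Dnajc17, Dnajc19, Dnajc28, Hspa1l, Hspa12a and Hspa12b, of which Hspa12a, Hspa12b and Dnajc5b were under 1.5 CPM in every library.

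Genes of the same pathways outside the naming rule, on lists chosen with earlier results of these data known, were read beside the members. Hsf1, the heat shock factor, was at 79.5 and 78.6 CPM in knockdown Dox-4OHT libraries, 66.4 and 68.3 CPM in NS Dox-4OHT libraries, 79.9 and 84.6 CPM in knockdown DMSO libraries and 59.7 and 61.4 CPM in NS DMSO libraries. It was higher with the knockdown by 0.23 ± 0.05 under Dox-4OHT (adjusted p = 0.000437) and 0.44 ± 0.05 under DMSO (adjusted p = 3.46e-08), the opposite direction to Hspa1b and Dnajb1. Among other members, Hsph1, Hsp90aa1, Hspb1 and Hspa4l were higher with the knockdown under both treatments, the same direction as Hsf1. The activity of Hsf1 was not measured, and its link to these members was not tested. Hsf1 rose with Ras in NS cells by 0.15 (adjusted p = 0.0222 by edgeR, 0.193 by DESeq2). Its responses differed by -0.21 (adjusted p = 0.0243 by edgeR, 0.217 by DESeq2). Hsf2, the other tested factor, was lower with the knockdown under Dox-4OHT (-0.21 ± 0.08, adjusted p = 0.0211) but not under DMSO (-0.13, adjusted p = 0.138). Of 28 cytosolic co-chaperones 12 were higher and 6 lower with the knockdown under DMSO, 5 higher and 11 lower under Dox-4OHT, 4 higher and 9 lower with Ras in knockdown cells, 8 higher and 4 lower with Ras in NS cells, and 4 above and 11 below 0 in the difference between responses. The shares called with the knockdown, 64.3% under DMSO and 57.1% under Dox-4OHT, and with Ras in NS cells, 42.9%, were near the 61.9%, 60.2% and 42.1% of all genes, and the share with Ras in knockdown cells was 46.4% against 36.1%. Over all genes 20.2% were above and 18% below 0 in the difference.

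Bag3, the Hsp70 cofactor that pairs with Hspb8, was at 136 and 136 CPM in knockdown Dox-4OHT libraries, 150 and 151 CPM in NS Dox-4OHT libraries, 119 and 119 CPM in knockdown DMSO libraries and 133 and 138 CPM in NS DMSO libraries. It was lower with the knockdown at -0.18 ± 0.04 under DMSO (adjusted p = 0.000499) and -0.14 ± 0.04 under Dox-4OHT (adjusted p = 0.00395, and 0.0837 by DESeq2). Stip1 (Hop), which links Hsp70 to Hsp90, had a Ras response of 0.01 ± 0.04 in knockdown cells (adjusted p = 0.813) and rose in NS cells by 0.28 ± 0.04 (adjusted p = 3.09e-07), a difference of -0.27 ± 0.05 (adjusted p = 0.000115). The Hsp90 partners Fkbp5 and Ppid were lower with the knockdown under Dox-4OHT, at -0.69 ± 0.06 (adjusted p = 3.73e-10) and -0.66 ± 0.06 (adjusted p = 4.59e-10).

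Of 19 genes of folding and stress sensing in the endoplasmic reticulum, 9 rose with Ras in knockdown cells (47.4%, where 19.5% of all genes rose), and 4 were higher and 6 lower in NS cells (52.6%, against 42.1% of all genes). The difference between responses was above 0 and past the test in 11, against 20.2% of all genes. With the knockdown 12 were higher and 4 lower under Dox-4OHT (84.2%, against 60.2% of all genes), and 9 were higher and 6 lower under DMSO (78.9%, against 61.9%). Xbp1, a main factor of the unfolded protein response, was at 69.2 and 71.2 CPM in knockdown Dox-4OHT libraries, 46.9 and 45.3 CPM in NS Dox-4OHT libraries, 51.3 and 46.2 CPM in knockdown DMSO libraries and 55.1 and 51.6 CPM in NS DMSO libraries. Its responses differed by 0.74 ± 0.09 (adjusted p = 1.8e-07). Its splicing, the active step of that response, is not seen in counts per gene.

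Pdia6, a disulfide isomerase, was higher with the knockdown by 0.66 ± 0.04 under Dox-4OHT (adjusted p = 1.65e-14) and 0.60 ± 0.04 under DMSO (adjusted p = 1.03e-13), and Hyou1, the Hsp110 of the reticulum, by 0.35 ± 0.03 (adjusted p = 5.63e-10) and 0.19 ± 0.03 (adjusted p = 1.76e-05). Herpud1 and Ddit3 (Chop), which rise in reticulum stress, were instead lower with the knockdown. Herpud1 changed by -0.38 ± 0.07 under Dox-4OHT (adjusted p = 1.29e-05) and -0.73 ± 0.07 under DMSO (adjusted p = 2.12e-09), and Ddit3 by -0.57 ± 0.09 (adjusted p = 2.09e-06) and -0.46 ± 0.10 (adjusted p = 0.000207). Both rose with Ras in each kind of cell, Herpud1 by 0.71 ± 0.07 in knockdown cells (adjusted p = 1.83e-08) and 0.36 ± 0.06 in NS cells (adjusted p = 4.23e-05), and Ddit3 by 0.42 ± 0.10 (adjusted p = 0.00116) and 0.54 ± 0.09 (adjusted p = 8.05e-06). The list's name therefore covers genes that moved in opposite directions with the knockdown.

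Of 11 mitochondrial folding and protease genes, 3 were higher and 3 lower with the knockdown under DMSO, 5 higher and 2 lower under Dox-4OHT, 3 higher and 1 lower with Ras in knockdown cells, and 1 higher and 2 lower with Ras in NS cells. The shares called were 54.5%, 63.6%, 36.4% and 27.3% in that order, against 61.9%, 60.2%, 36.1% and 42.1% of all genes. The difference between responses passed in 2, where 38.2% of all genes passed, Lonp1 (0.25) and Grpel2 (0.35), the call of Grpel2 not holding without NS DMSO replicate 1 (0.29, adjusted p = 0.0607) or knockdown Dox-4OHT replicate 1 (0.21, adjusted p = 0.137). Atf5, a factor of the mitochondrial stress response, was at 37.2 and 39.3 CPM in knockdown Dox-4OHT libraries, 55.1 and 61.4 CPM in NS Dox-4OHT libraries, 25.4 and 25.7 CPM in knockdown DMSO libraries and 43.5 and 47 CPM in NS DMSO libraries. It rose with Ras in both kinds of cells, by 0.58 ± 0.08 in knockdown cells (adjusted p = 1.03e-06) and 0.37 ± 0.06 in NS cells (adjusted p = 3.67e-05), and was lower with the knockdown at -0.61 ± 0.07 under Dox-4OHT (adjusted p = 9.72e-09) and -0.82 ± 0.07 under DMSO (adjusted p = 2.47e-10). Trap1, the mitochondrial Hsp90, was at 121 to 148 CPM, with knockdown effects of 0.14 ± 0.04 under each treatment, that under DMSO not past the test without knockdown DMSO replicate 2 (0.13, adjusted p = 0.0559) and that under Dox-4OHT not without NS Dox-4OHT replicate 1 (0.08, adjusted p = 0.16) or knockdown Dox-4OHT replicate 2 (0.13, adjusted p = 0.0607).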

How the data were processed

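RNA of adherent ASZ001 cells was sequenced from TruSeq libraries on an Illumina HiSeq, per the labels' protocols. TopHat, HOMER at the isoform level, DESeq2 and the mm9 genome are named in the submitters' processing notes. Their versions, strand use and the handling of reads that match several genes were not stated in any source used here. The authors deposited estimated counts per gene, with no normalization; all values in the table were multiples of 0.5. They were rounded to whole numbers, where the planned design had allowed for plain counts too.

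Of 24909 entries, 2 repeats of a symbol were dropped. Genes kept by edgeR's filter (12538, with 99.96% of the counts) were fitted with edgeR 4.0.16 in R 4.3.3 (limma 3.58.1; TMM scaling, robust quasi-likelihood fit, 1 mean for each of 4 groups, 4 residual degrees of freedom), and p-values, two-sided, were adjusted by Benjamini-Hochberg over all of them. The biological coefficient of variation was 3.37%. SE is the log2 change divided by the square root of F. CPM uses TMM-scaled library sizes, and CPM per kilobase the deposited transcript length. The procedure was tested on simulated data.

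Libraries of a group differed beyond sampling noise (chi-square per degree of freedom 2.28 to 12.8), so no 2 were counted as 1 library. This does not show that they came from separate cultures. The chi-square included Rn45s, at 116596 and 375306 counts in NS Dox-4OHT libraries (12.8) and 49889.5 and 192348 in knockdown DMSO libraries (7.96). The chi-square without Rn45s was not computed. Library totals limit only the low genes' precision. Samples were grouped by the labels. Alternatives were other scaling, no filter on low counts, a replicate block, a fit of the compared libraries alone, a non-robust fit, DESeq2 1.42.0, a size rule, leaving out Rn45s, summing Hspa1a with Hspa1b, and leaving out each library.

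Members and lists were chosen with earlier results of these data known. Named genes were a fixed set of main chaperones, together with the 8 members of largest change among those called at 5 CPM or more in each comparison, and a few genes of each pathway list chosen likewise. Dnajc12, Dnajc13, Dnajc16, Dnajc27, Hspa4 and Hspb6 fall outside that rule and were named after their values were seen. Sequences are RefSeq's (GRCm38.p6), matched by symbol, and were not combined with coordinates of mm9.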

Additional observations from a re-analysis of the deposited data

Results flagged for a closer look

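In 36 members the Ras response differed between knockdown and NS cells by the interaction test of edgeR (knockdown response minus NS response, log2).. Above 0 were Hspa1a (1.17), Hspb2 (0.91), Dnajb9 (0.69), Hspa2 (0.57), Hspb1 (0.55), Dnajb2 (0.47), Dnajb5 (0.47), Hspa1b (0.46), Hspb8 (0.44), Dnaja4 (0.38), Dnajc30 (0.35), Dnajc5 (0.24), Hspa5 (0.22), Hsph1 (0.20), Dnajb1 (0.18) and Dnajc14 (0.15). Below 0 were Dnajc21 (-0.37), Cct6a (-0.34), Hspd1 (-0.31), Hspe1 (-0.30), Cct8 (-0.29), Dnajc2 (-0.29), Hspa13 (-0.28), Hspa14 (-0.28), Cct2 (-0.27), Cct4 (-0.23), Cct5 (-0.23), Cct7 (-0.22), Cct3 (-0.21), Hsp90ab1 (-0.21), Dnajc7 (-0.20), Dnajc11 (-0.20), Dnaja2 (-0.18), Hspa9 (-0.15), Dnajc10 (-0.15) and Hsp90b1 (-0.13).

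Of these, 10 of the 16 above 0 and 13 of the 20 below 0 passed in every fit that left out 1 library. The 10 were Dnajb2, Dnajb9, Dnajc5, Hspa1a, Hspa1b, Hspa2, Hspa5, Hspb1, Hspb2 and Hspb8, and the 13 were the 7 CCT genes, Dnaja2, Dnajc2, Dnajc21, Hsp90ab1, Hspa13 and Hspd1. The call of Dnajb5 was lost in all 8 of those fits, at adjusted p of 0.0577 to 0.161.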

How the results depend on the processing

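Across 240 gene values of 48 genes and 17 settings, 3713 of 4027 alternative values kept their side of the threshold. A further 289 no longer passed, 25 newly passed and 0 past the test changed sign. The 3713 include 41 in which the sign differed with neither value past the test. With RLE scaling 240 of 240 were kept, and scaling moved the median of all genes by under 0.1. DESeq2 called 7 higher and 9 lower with Ras in knockdown cells, 7 and 4 in NS cells, and 10 and 12 for the difference between responses. Requiring also a change of at least 0.5 on the log2 scale left 3 higher and 0 lower with Ras in knockdown cells. In NS cells it left 1 and 1, and for the difference 5 and 0. For the knockdown it left 8 and 6 under Dox-4OHT and 2 and 6 under DMSO. Shares of all genes under DESeq2 and this size rule are not given here, so neither drop can be read as particular to the members. Leaving out 1 library at a time gave 10 to 12 higher and 11 to 16 lower with Ras in knockdown cells, 7 to 15 and 6 to 11 in NS cells (fewest higher without NS DMSO replicate 2, fewest lower without NS DMSO replicate 1), 20 to 23 and 19 to 24 for the knockdown under Dox-4OHT, 17 to 24 and 14 to 17 under DMSO, and 12 to 14 and 15 to 21 for the difference. The replicate numbers did not pair the libraries (correlations of their deviations -0.02 to 0.03). With the replicate block the counts were 12 and 15, 14 and 11, 22 and 24, 24 and 17, and 16 and 21 in the same order. With that block, differences of Hspa8 (-0.17, adjusted p = 0.0432) and Dnajc4 (0.38, adjusted p = 0.0475) and the NS response of Cct6a (0.08, adjusted p = 0.0475) passed, Hspa13 passed as higher with the knockdown under DMSO, and the difference of Dnajb5 did not pass (0.46, adjusted p = 0.0527); the block changed no other member's call. The low-count filter left out 12 members, at or under 0.938 CPM. With no filter, and in 5 of the fits that left out 1 library, Dnajc22 among them passed as higher with the knockdown under Dox-4OHT; depth limits what can be seen of such genes. The causes of these changes were not tested.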
